A study of Mus musculus with 4 samples.

Results

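Interferon-stimulated genes and the genes of MHC class I antigen presentation were followed as a set of 43 named genes, taken by symbol from the 23924 genes of the expression matrix. The set holds the transcription factors of the interferon response, the cytoplasmic RNA sensors, the antiviral effectors, the ISG15 system, interferon-inducible GTPases, and the proteasome, transporter and chain genes that bring peptides to the cell surface. All 43 symbols were found in the matrix and 40 were above 0 in at least 1 library.

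Tail tip fibroblasts (TTF) were taken from male mice of the line C57BL/6J-TgBAC8-2087. Transgenic (TG) cells came from Tg2087/+ animals, which carry a transgene of the X-inactivation center (*Xic*), *Xist* included, on an autosome, and wildtype (WT) cells from their +/+ littermates. Cells of both genotypes were immortalized with SV40 large T and were tetraploid, and the labels name no treatment with interferon or any other agent. RNA-seq gave 2 libraries for each genotype, and the sources do not say if these are separate animals or cultures, so each p-value measures only the spread between these libraries. The libraries held between 9465712 and 14639946 reads, as worked out from the deposited FPKM values (fragments per kilobase of gene, scaled to library size). *Xist*, the check of the transgene, was at 0 and 0.108 FPKM in the WT libraries and at 2.31 and 2.28 FPKM in the TG libraries. Of 10 fibroblast markers, *Col1a1*, *Col1a2*, *Thy1*, *Vim* and *S100a4* were above 200 FPKM in every library, whereas *Lum* was listed at 0 in all and *Dcn* in both WT libraries. In bulk RNA, fewer cells of a type and less RNA per cell cannot be told apart.

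Type I interferons bind a receptor whose JAK kinases phosphorylate STAT proteins. A complex that holds STAT2 and IRF9 binds the interferon-stimulated response element (ISRE), and the response to interferon gamma acts mainly through the gamma-activated site (GAS). Many of the genes switched on in this way are kept at a low level in unstimulated fibroblasts by weak tonic signalling, and large T antigen and other DNA tumour virus proteins are known to act on this pathway.

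Promoter sequence was read from RefSeq (GRCm38.p6), which gave an entry for 34 of the 43 genes, 39 promoters in all. Each entry held 250 bases before the start of the gene and 50 from the start on. The ISRE core was searched as GAAANNGAAA on both strands, so that TTTCNNTTTC is the same core read from the other strand, and GAS as TTCNNNGAA, which reads the same on both. The ISRE core was present in 43.6% of the promoters of the set and in 3.44% of all 32851 promoters. The GAS was present in 20.5% and 8.3%. A match describes the letters only, and whether a factor was bound was not measured.

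The 250 bases before the start are printed for 6 genes on which the results below turn: the gene that differed most clearly between genotypes (*Irgm1*), an effector that was higher in both TG libraries (*Ifit1*), an effector without a read in WT (*Rsad2*), a transcription factor with a GAS (*Irf1*), the transporter gene that shares its start region with *Psmb9* (*Tap1*), and the most abundant gene of the set (*B2m*). Capitals mark ISRE cores, and in *Irf1* the GAS. In *Irgm1*, on the minus strand at chr11:48871421-48871670, the 2 cores overlap and begin 30 and 24 bases before the start.
Irgm1: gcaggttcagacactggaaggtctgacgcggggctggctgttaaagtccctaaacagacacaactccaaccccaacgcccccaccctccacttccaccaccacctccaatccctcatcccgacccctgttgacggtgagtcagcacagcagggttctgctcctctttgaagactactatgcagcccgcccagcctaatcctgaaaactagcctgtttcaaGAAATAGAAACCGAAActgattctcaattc
In *Ifit1*, on the plus strand at chr19:34640639-34640888, the cores begin 104 and 85 bases before the start and both are written as TTTCNNTTTC.
Ifit1: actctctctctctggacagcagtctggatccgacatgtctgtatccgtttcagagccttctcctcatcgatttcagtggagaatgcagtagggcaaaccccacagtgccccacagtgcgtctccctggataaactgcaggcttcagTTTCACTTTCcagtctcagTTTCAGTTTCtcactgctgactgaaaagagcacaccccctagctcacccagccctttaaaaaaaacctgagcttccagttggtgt
In *Rsad2*, on the minus strand at chr12:26456453-26456702, a single core begins 120 bases before the start.
Rsad2: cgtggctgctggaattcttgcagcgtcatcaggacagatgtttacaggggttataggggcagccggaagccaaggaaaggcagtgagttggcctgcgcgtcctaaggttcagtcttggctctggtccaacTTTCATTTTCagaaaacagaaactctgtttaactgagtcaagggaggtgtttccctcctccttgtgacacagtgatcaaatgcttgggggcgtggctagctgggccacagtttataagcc
The GAS of *Irf1*, on the plus strand at chr11:53769764-53770013, begins 90 bases before the start, and no ISRE core was in the window.
Irf1: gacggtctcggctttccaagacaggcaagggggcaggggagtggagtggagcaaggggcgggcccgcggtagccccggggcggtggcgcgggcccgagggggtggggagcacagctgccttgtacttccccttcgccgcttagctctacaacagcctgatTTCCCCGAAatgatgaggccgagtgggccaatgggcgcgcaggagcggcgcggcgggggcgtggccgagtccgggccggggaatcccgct
The start of *Tap1*, on the plus strand, lies 226 bases from that of *Psmb9*, on the minus strand, and the window at chr17:34187306-34187555 held neither motif as searched.
Tap1: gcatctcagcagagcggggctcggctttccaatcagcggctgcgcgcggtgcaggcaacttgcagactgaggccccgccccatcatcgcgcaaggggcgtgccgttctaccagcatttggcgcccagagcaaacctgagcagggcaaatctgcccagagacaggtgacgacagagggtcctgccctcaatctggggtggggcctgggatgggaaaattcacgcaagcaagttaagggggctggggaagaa
The ISRE core of *B2m*, on the plus strand at chr2:122147437-122147686, begins 139 bases before the start.
B2m: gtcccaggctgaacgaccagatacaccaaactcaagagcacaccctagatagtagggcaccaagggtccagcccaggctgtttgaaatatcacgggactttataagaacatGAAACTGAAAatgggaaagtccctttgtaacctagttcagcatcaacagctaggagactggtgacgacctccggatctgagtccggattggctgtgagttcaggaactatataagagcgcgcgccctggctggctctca

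The level of most genes of the set was low in both genotypes. *Oas2*, *Mx1* and *Psmb9* were listed at 0 in all 4 libraries, and 12 further genes had a mean FPKM above 0 and under 0.5. Between 0.5 and 3 FPKM lay 14 genes, between 3 and 10 FPKM 7, between 10 and 100 FPKM 6, and only *B2m* was above 100. The median of the mean FPKM of the 15530 genes above 0 was 5.1, and 12 genes of the set lay above it. A total of 19 genes of the set rested on 1 to 99 reads over the 4 libraries together. The 43 genes lie on 14 chromosomes, with 8 on chromosome 17, where the MHC is, 7 on chromosome 11 and 0 on chromosome 1.

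**Figure D1:**
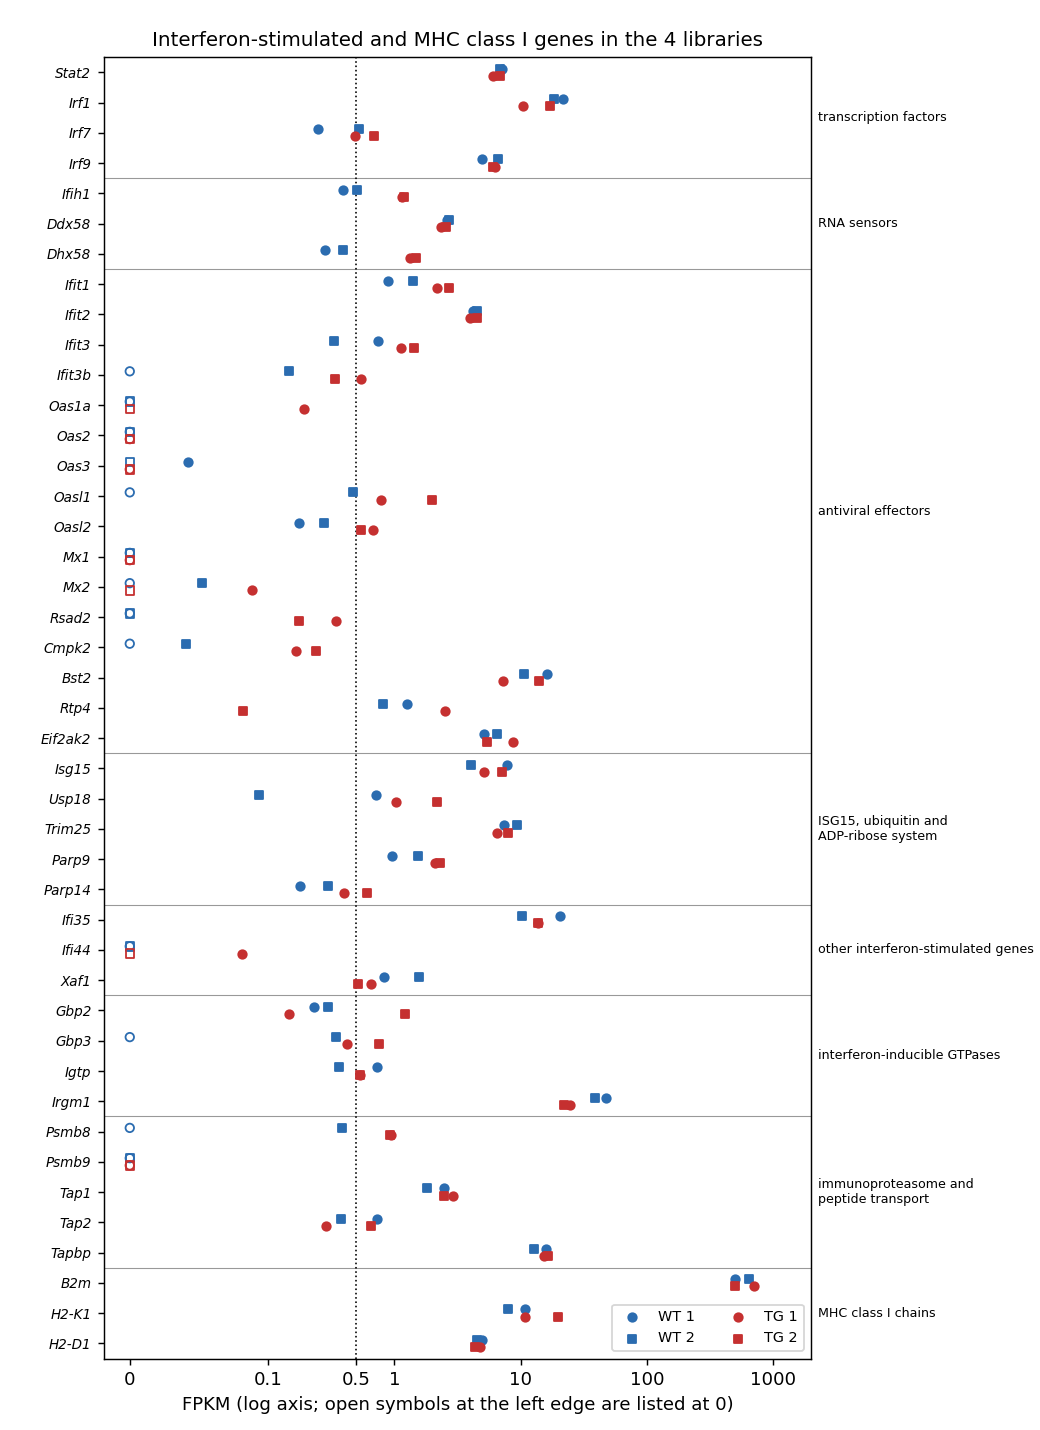
FPKM of the 43 genes (log axis) in each library, WT in blue and TG in red, grouped by role. Open symbols at the left edge are values of 0, the dotted line marks the mean FPKM of 0.5 required by the test, and *B2m* lies alone at 499 to 708 FPKM.

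TG was compared with WT by limma on log2(FPKM + 0.5), which understates the change of low genes. The fit took 11524 genes whose FPKM averaged 0.5 or more over the libraries. It included 28 genes of the set, and p-values were adjusted by Benjamini-Hochberg over all 11524. The thresholds of the study were 0.01 for the adjusted p and 1 for the size of the log2 fold change. At these, limma called 0 of the 28 down and 0 up in TG, while it called 0.469% of all genes tested down and 0.607% up. The voom fit on the recovered reads also called 0 in each direction. At an adjusted p under 0.05 without a fold threshold, 1 gene, *Irgm1*, was lower (1.54% of all genes tested) and 0 were higher (2.59%). At an unadjusted p under 0.05, 2 were lower, *Irf1* and *Irgm1* (6.88%), and 5 were higher, *Dhx58*, *Ifit1*, *Oasl1*, *Psmb8* and *Usp18* (12.7%). All of these 5 except *Ifit1* averaged under 0.5 FPKM in WT and entered the test only through their TG values.

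The median log2 fold change of the 28 genes was 0.080, beside 0.071 over all genes tested, with a range from -0.87 to 1.36. It was 0.188 without WT 1 and 0.0093 without WT 2 (0.067 and 0.061 over all genes), and it turned to -0.032 with quantile normalization, where that of all genes was -0.013. The log2 fold change lay below 0 in 12 genes (42.9%, against 42.5% of all genes tested) and above 0 in 16 (57.1%, against 57.5%). Both TG libraries were below both WT libraries in 4 genes, *Ddx58*, *Irf1*, *Irgm1* and *Xaf1*, a share of 14.3% against 20.3% of all genes tested. Both TG libraries were above both WT libraries in 8 genes, *Dhx58*, *Ifih1*, *Ifit1*, *Ifit3*, *Oasl1*, *Parp9*, *Psmb8* and *Usp18*, a share of 28.6% against 30.2%. Of these 8, *Dhx58*, *Ifih1*, *Oasl1*, *Psmb8* and *Usp18* averaged under 0.5 FPKM in WT. They reached the filter only through their TG values, so their order is not read as support for a difference. Neither share exceeded that of all genes tested, and with 28 genes they are not read as lower than it.

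**Figure D2:**
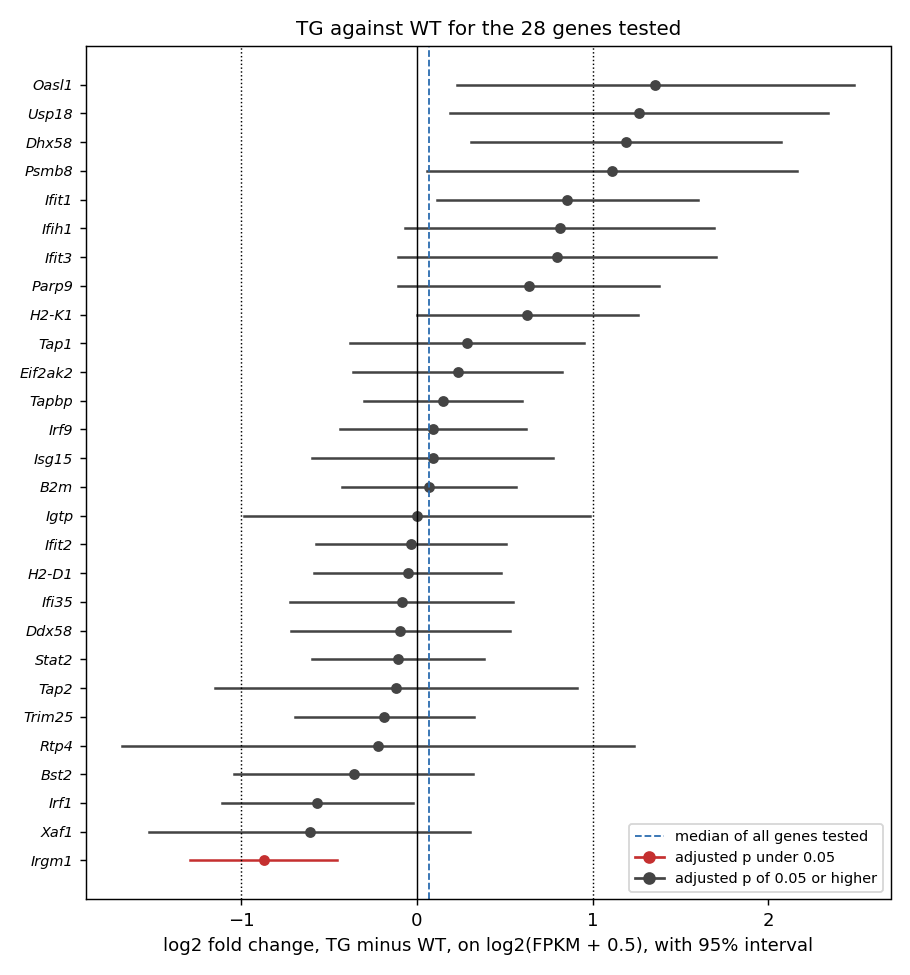
Log2 fold change between TG and WT with its 95% interval from limma for the 28 genes tested, sorted by size. *Irgm1*, in red, is the only gene with an adjusted p under 0.05, the dashed line is the median of all genes tested (0.071), and dotted lines mark a log2 fold change of 1 in either direction.

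The interferon-inducible GTPases act at membranes around intracellular pathogens and in autophagy, and *Irgm1* regulates the other members of its family. *Irgm1* lies on chromosome 11 from 48865245 to 48871420 in GRCm38. It was at 47.5 and 39.0 FPKM in WT (970 and 1230 reads) and 24.6 and 22.1 in TG (632 and 527 reads). The genotypes did not overlap, and the gap between them was wider than the difference within either. *Irgm1* was 46.0% lower in TG, at 23.3 ± 1.76 FPKM (SD, n = 2) against 43.2 ± 6.05 in WT (log2 fold change -0.87, standard error 0.19, limma adjusted p = 0.0301), and it fell with voom as well (-0.94, adjusted p = 0.0033). With 1 library left out, limma gave adjusted p-values from 0.0692 (without TG 1) to 0.137 (without WT 1), with 0.116 without WT 2 and 0.121 without TG 2, and with the replicate number as a block 0.0766.

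The other 3 GTPases were low. *Igtp*, also known as *Irgm3*, was at 0.733 and 0.364 FPKM in WT and 0.537 and 0.531 in TG, and 11.8% of its 50-base stretches are also found in *Irgm2*. *Gbp2* was at 0.229 and 0.296 FPKM in WT and 0.145 and 1.22 in TG, and *Gbp3* at 0 and 0.345 in WT and 0.423 and 0.760 in TG. TG enclosed the WT values in *Gbp2*, where 31 of 50 reads came from TG 2, and was above them in *Gbp3*. Guanylate-binding proteins *Gbp4*, *Gbp5*, *Gbp6*, *Gbp9* and *Gbp10*, outside the set, were listed at 0 in all libraries.

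Of the transcription factors, *Irf1*, the interferon regulatory factor that responds chiefly to interferon gamma, was the most abundant. It was at 21.5 and 18.4 FPKM in WT and 10.3 and 17.0 in TG. The TG libraries were both lower, but they differed from each other by more than the genotypes did (log2 fold change -0.57, standard error 0.25, limma adjusted p = 0.236). *Stat2* was at 7.08 and 6.87 FPKM in WT and 6.01 and 6.89 in TG, and *Irf9* at 4.95 and 6.56 in WT and 6.24 and 5.98 in TG. These subunits of the ISRE-binding complex overlapped between genotypes, with 95% intervals of the log2 fold change from -0.60 to 0.38 and from -0.44 to 0.62. *Irf7*, which amplifies the type I interferon response and is itself induced by it, was under the level required by the test at 0.247 and 0.519 FPKM in WT and 0.490 and 0.687 in TG.

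The RNA sensors split by their level. *Ddx58*, which encodes RIG-I, was at 2.60 and 2.68 FPKM in WT and 2.34 and 2.55 in TG. Although both TG values were lower, the log2 fold change was only -0.09 (95% interval -0.72 to 0.53, limma adjusted p = 0.898). *Ifih1*, which encodes the sensor of long double-stranded RNA MDA5, was at 0.393 and 0.509 FPKM in WT (20 and 40 reads) and 1.14 and 1.20 in TG (73 and 71 reads). Both TG libraries were thus higher and close to each other, with a mean 2.59 times that of WT. Its log2 fold change of 0.81 (standard error 0.40) did not pass the test (limma adjusted p = 0.292).

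*Dhx58*, which encodes LGP2, the regulator of both other sensors, showed the same order. It was at 0.280 and 0.392 FPKM in WT (6 and 13 reads) and 1.33 and 1.48 in TG (36 and 37 reads). The mean in TG was 4.18 times that in WT, and the libraries of a genotype differed by at most 0.19 on the log2 scale, against a log2 fold change of 1.19 (standard error 0.40). The adjusted p from limma was 0.132, and 0.0460 in the fit without a variance trend.

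The antiviral effectors ranged from 0 to 16.2 FPKM. *Bst2*, the tetherin gene that holds budding virions at the membrane, was at 16.2 and 10.6 FPKM in WT and 7.26 and 14.0 in TG, and *Eif2ak2*, the kinase PKR that stops translation on double-stranded RNA, at 5.16 and 6.51 in WT and 8.69 and 5.45 in TG. In both genes the genotypes overlapped. The 95% interval of the log2 fold change was -1.04 to 0.32 for *Bst2* and -0.36 to 0.83 for *Eif2ak2*.

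The *Ifit* genes, which encode proteins that bind foreign RNA 5′ ends, lie together on chromosome 19 between 34550550 and 34650009. *Ifit2* was at 4.19 and 4.49 FPKM in WT and 4.0 and 4.47 in TG. *Ifit1* was at 0.891 and 1.4 FPKM in WT (21 and 51 reads) and 2.19 and 2.72 in TG (65 and 75 reads). The genotypes overlapped in *Ifit2* (95% interval of the log2 fold change -0.58 to 0.51), whereas both TG libraries were higher in *Ifit1*, by a log2 fold change of 0.86 (standard error 0.34) that did not pass the test (limma adjusted p = 0.192).

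*Ifit3* was at 0.743 and 0.332 FPKM in WT and 1.13 and 1.42 in TG, and *Ifit3b* at 0 and 0.147 in WT and 0.540 and 0.339 in TG. They are near-identical copies: 51.2% of the 50-base stretches of *Ifit3* are also found in *Ifit3b*, and how reads with several matches were counted is not given in the sources used here. The TG libraries were higher under both symbols, and these values cannot be assigned to 1 copy with certainty. For *Ifit3* the log2 fold change of 0.80 (standard error 0.41) had a limma adjusted p of 0.315.

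Among the oligoadenylate synthetases, whose product activates RNase L, *Oas2* was listed at 0, *Oas3* had 1 read, in WT 1 (0.0231 FPKM), and *Oas1a* had 4, all in TG 1 (0.193 FPKM). *Oas1a* shares 57.6% of its 50-base stretches with *Oas1g*, itself listed at 0. The related *Oasl1*, known as a repressor of *Irf7* translation, was at 0 and 0.466 FPKM in WT (0 and 14 reads) and 0.777 and 1.98 in TG (19 and 45 reads). Both TG libraries lay above WT, but within each genotype the libraries differed by 0.95 and 0.96 on the log2 scale. Its log2 fold change of 1.36 (standard error 0.51) was the highest of the 28 genes and did not pass the test (limma adjusted p = 0.176). *Oasl2*, at 0.177 and 0.274 FPKM in WT and 0.674 and 0.545 in TG, was also above WT in both TG libraries, with 59 reads in all.

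The GTPases *Mx1* and *Mx2* act against entering viruses. *Mx1* was listed at 0, which leaves room for 3 reads, or 0.0805 to 0.124 FPKM in the 4 libraries, and *Mx2* had 1 read in WT 2 and 2 in TG 1. *Rsad2*, which encodes viperin, and its neighbour on chromosome 12 *Cmpk2*, a nucleotide kinase, were read mainly in TG. *Rsad2* was listed at 0 in both WT libraries, which allows up to 0.0872 and 0.0564 FPKM, and was at 0.346 and 0.174 FPKM in TG (15 and 7 reads). *Cmpk2* was at 0 and 0.0225 FPKM in WT (0 and 1 read) and 0.166 and 0.238 in TG (6 and 8 reads). Both were under the level required by the test.

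*Rtp4*, an interferon-induced chaperone of receptors, varied most within a genotype. It was at 1.26 and 0.815 FPKM in WT, 2.53 in TG 1 and 0.0635 in TG 2, from 17, 17, 43 and 1 reads. The TG libraries lay on either side of WT and differed by 2.43 on the log2 scale. The log2 fold change of -0.22 (standard error 0.66) became 0.99 without TG 2 and -1.43 without TG 1, and 11.6% of its 50-base stretches are found in a second gene.

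In the ISG15 system, *Isg15* encodes the ubiquitin-like modifier, *Usp18* the protease that removes it and that also damps the type I interferon receptor, and *Trim25* a ligase that acts on RIG-I. *Isg15* was at 7.83 and 4.05 FPKM in WT and 5.11 and 7.15 in TG, and *Trim25* at 7.34 and 9.29 in WT and 6.54 and 7.93 in TG. Both overlapped between genotypes, with 95% intervals of the log2 fold change from -0.60 to 0.78 and from -0.69 to 0.32. *Usp18* was at 0.716 and 0.0842 FPKM in WT (11 and 2 reads) and 1.03 and 2.17 in TG (20 and 39 reads). It was higher in both TG libraries (log2 fold change 1.26, standard error 0.49, limma adjusted p = 0.184), while its WT libraries alone differed by 1.06.

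The ADP-ribosyltransferases *Parp9* and *Parp14*, neighbours on chromosome 16, were both higher in both TG libraries. *Parp9* was at 0.959 and 1.54 FPKM in WT and 2.09 and 2.28 in TG (log2 fold change 0.64, standard error 0.34, limma adjusted p = 0.335). *Parp14*, under the level required by the test, was at 0.179 and 0.298 FPKM in WT and 0.402 and 0.611 in TG. Of the remaining interferon-stimulated genes, *Ifi35* was at 20.6 and 10.2 FPKM in WT and 13.6 and 13.7 in TG, so that both TG values lay inside the WT pair. *Xaf1*, which encodes a proapoptotic partner of XIAP, was at 0.820 and 1.56 FPKM in WT and 0.651 and 0.517 in TG, lower in both TG libraries without passing the test (log2 fold change -0.61, standard error 0.41, limma adjusted p = 0.467). *Ifi44* had 2 reads, both in TG 1 (0.0619 FPKM).

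MHC class I molecules present peptides that the proteasome cuts and the transporter TAP moves into the endoplasmic reticulum. *B2m*, the invariant light chain, was at 500 and 642 FPKM in WT and 708 and 499 in TG, the rank of 95 from the highest among genes above 0. The genotypes overlapped, with a 95% interval of the log2 fold change from -0.42 to 0.56. The heavy chain genes were far lower per length: *H2-K1* was at 10.8 and 7.96 FPKM in WT and 10.8 and 19.7 in TG, and *H2-D1* at 4.93 and 4.52 in WT and 4.76 and 4.33 in TG. In *H2-K1* TG 2 stood above the other libraries (log2 fold change 0.63, 95% interval 0.00 to 1.26, limma adjusted p = 0.256), and in *H2-D1* the 4 values lay close together (95% interval -0.58 to 0.48). Because 9.63% and 12.8% of their 50-base stretches recur in other genes, the heavy chain levels are uncertain.

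Of the peptide transport genes, *Tapbp*, which encodes the tapasin that bridges TAP and class I chains, was at 15.8 and 12.8 FPKM in WT and 15.2 and 16.5 in TG. The TAP subunits were lower, with *Tap1* at 2.49 and 1.80 FPKM in WT and 2.93 and 2.48 in TG and *Tap2* at 0.722 and 0.379 in WT and 0.287 and 0.656 in TG. All 3 overlapped between genotypes. Of the immunoproteasome subunits, *Psmb9* was listed at 0 in all libraries, where 3 reads would be 0.170 to 0.263 FPKM, although *Tap1*, which starts 226 bases away, had 66 to 98 reads in each library.

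*Psmb8* was at 0 and 0.382 FPKM in WT (0 and 6 reads) and 0.937 and 0.926 in TG (12 and 11 reads). Both TG libraries were higher, but the log2 fold change of 1.11 (standard error 0.48) did not pass the test (limma adjusted p = 0.231). Relative to its constitutive counterpart *Psmb5*, *Psmb8* was at 0% and 0.729% in WT and 0.776% and 0.689% in TG. The WT 2 ratio lay between those of TG, so the ratios overlapped (exact permutation test, two-sided, p = 0.667, where 0.333 is the smallest possible). *Psmb5* was at 133 and 52.3 FPKM in WT and 121 and 134 in TG. What part the *Psmb5* value of WT 2 had in the overlap was not tested. With so few *Psmb8* reads and 2 libraries per genotype, the ratio cannot decide if *Psmb8* differed beyond *Psmb5*.

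Genes with few reads were examined separately, because the test left them out. Over the 40 genes of the set above 0, both TG libraries were above both WT libraries in 14 (35.0%, against 25.5% of all genes above 0) and below in 4 (10.0%, against 18.1%). The 6 added by the low genes were *Cmpk2*, *Gbp3*, *Ifit3b*, *Oasl2*, *Parp14* and *Rsad2*, out of the 12 under the level of the test, where 12% of the 4006 genes at such levels showed this order. None of the 12 showed the opposite order, which 11.8% of those genes did. Summed over the 12, the WT libraries had 27 and 87 reads and the TG libraries 128 and 157, which scaled to 1000000 reads of the library is 2.85, 5.94, 10.7 and 14.2. On the same scale the 4006 low genes together had between 1585 and 1716 reads in every library. No p-value is given for these counts. WT 1 had the fewest total reads (9465712) and the fewest in these 12 genes. WT 2 had the most total reads (14639946) and 87 in the 12 genes, beside 128 and 157 in TG. What depth did to these counts was not tested.

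The ISRE core was found among genes of each order. It was in the promoter of 6 of the 10 genes with an entry that were higher in both TG libraries, in 2 of the 4 that were lower in both, *Ddx58* and *Irgm1*, and in 9 of the 19 that overlapped.

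The libraries of a genotype differed by more than the genotypes did in 19 of the 28 genes tested (67.9%), as in 63.2% of all genes tested. Over the 28, the difference between replicate 2 and replicate 1 on the log2 scale had a standard deviation of 0.53 in WT and 0.63 in TG, beside 0.45 and 0.46 over all genes tested. Of all genes tested, the 2544 with a mean FPKM under 3, where 14 of the 28 lie, had 0.63 and 0.71. The medians of the set were -0.077 in WT and 0.105 in TG, so neither library of a genotype was higher throughout. The 9 genes in which the genotypes differed by more than their libraries were *Irgm1*, lower in TG, and the 8 that were higher in both TG libraries. The same split by direction was not worked out over all genes tested, so it is not read as a trait of the set. Of all genes tested, both TG libraries were above WT in 30.2% and below in 20.3%.

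**Figure D3:**
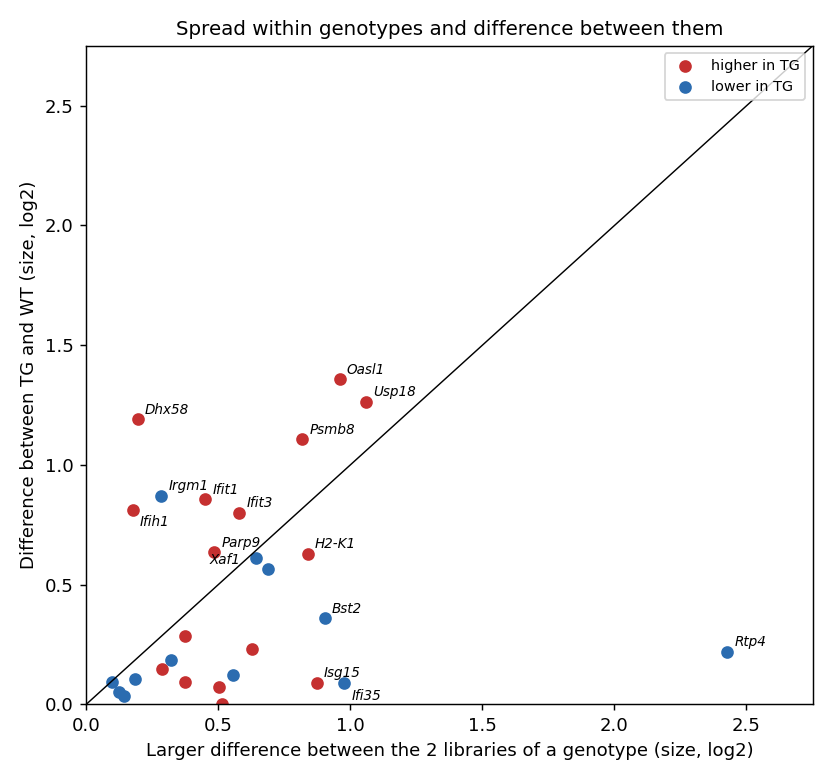
Size of the difference between TG and WT against the larger of the differences between the libraries of a genotype, both on log2(FPKM + 0.5), for the 28 genes tested. The line marks equal sizes, 19 genes lie below it, and *Rtp4* lies farthest to the right at 2.43.

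The rest of the pathway was read from lists of ligands, receptors, sensors and further target genes. Of 21 interferon genes, 20 were listed at 0 in all libraries, and *Ifnz* had 2 reads in WT 2 and 10 in TG 2. All 16 genes of the receptors and JAK-STAT signalling were above 0. Of the 15 tested, 1 was higher (6.67%, against 2.59% of all genes tested) and 0 lower (1.54%) at an adjusted p under 0.05. At an unadjusted p under 0.05, 2 were higher (13.3%, against 12.7%), *Ptpn6* and *Socs1*, and 1 lower (6.67%, against 6.88%), *Ifngr2*. Both TG libraries were above WT in 4 of the 15 (26.7%, against 30.2%) and below in 3 (20%, against 20.3%). *Ifnar1* was at 7.92 to 11.2 FPKM and *Ifnar2* at 10.7 to 12.9, and both overlapped. *Jak1* was at 44.2 and 50.6 FPKM in WT and 39.2 and 40.6 in TG (limma adjusted p = 0.503).

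*Socs1*, which encodes an inhibitor of the JAK kinases and is itself induced by interferon, was the gene higher at an adjusted p under 0.05. It was at 0.355 and 1.03 FPKM in WT (4 and 18 reads) and 5.14 and 4.25 in TG (73 and 56 reads). The genotypes were far apart, and the difference passed both thresholds of the study (log2 fold change 2.18, standard error 0.36, limma adjusted p = 0.0094). The voom fit gave an adjusted p of 0.0398, above the threshold of 0.01, and with 1 library left out limma gave from 0.0147 (without TG 2) to 0.0700 (without WT 1), so that none of these passed it.

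Of the 16 other interferon-stimulated genes tested, 2 were lower (12.5%, against 1.54% of all genes tested) and 0 higher (2.59%) at an adjusted p under 0.05. At an unadjusted p under 0.05, 3 were higher (18.8%, against 12.7%), *Cxcl10*, *Ifitm3* and *Nmi*. The same 2 were lower (12.5%, against 6.88%). Both TG libraries were above WT in 6 of the 16 (37.5%, against 30.2% of all genes tested) and below in 4 (25%, against 20.3%). *Lgals9*, which encodes galectin-9, was at 68.4 and 88.9 FPKM in WT and 26.0 and 25.3 in TG, 67.4% lower (log2 fold change -1.59, standard error 0.19, limma adjusted p = 0.0015, but 0.0292 without WT 1 and 0.0453 without WT 2). *Ifi47*, a GTPase of the family of *Irgm1*, was at 2.89 and 3.0 FPKM in WT and 0.585 and 0.485 in TG, 81.9% lower (log2 fold change -1.74, standard error 0.34, limma adjusted p = 0.0187). Both were lower in both TG libraries, as *Irgm1* was, and the adjusted p of *Ifi47* was 0.115 without WT 1 and 0.203 without WT 2. *Irgm2*, of the same family, went the other way. It was at 0.188 and 0.223 FPKM in WT and 0.623 and 0.484 in TG, under the level required by the test. None of the 10 sensing genes tested had an adjusted p under 0.05 (limma). At an unadjusted p under 0.05, 1 was higher (10%, against 12.7% of all genes tested), *Irf3*. It was at 22.9 and 19.7 FPKM in WT and 36.3 and 32.4 in TG (limma adjusted p = 0.0745).

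In antigen presentation outside the set, limma gave 0 of 11 class I genes tested an adjusted p under 0.05. At an unadjusted p under 0.05, 3 were higher in TG (27.3%, against 12.7% of all genes tested), *H2-M3*, *Psmb10* and *Psme2*, and 0 lower (6.88%). *Psmb10*, the remaining catalytic subunit of the immunoproteasome, was at 14.7 and 10.7 FPKM in WT and 18.3 and 29.4 in TG. Its log2 ratio to the constitutive subunit *Psmb7* was 0.82 higher in TG, and both TG libraries exceeded both WT libraries (exact permutation test, two-sided, p = 0.333, the smallest that 2 against 2 libraries can give). The difference was 0.49 without TG 2 and 1.16 without TG 1. Of the constitutive subunits, *Psmb6*, the counterpart of the unread *Psmb9*, was at 554 and 332 FPKM in WT and 1057 and 966 in TG (log2 fold change 1.24, standard error 0.24, limma adjusted p = 0.020, but 0.195 without WT 2 and 0.0676 without TG 1). *Nlrc5*, the transactivator of class I genes, was at 0.0399 to 0.0777 FPKM, and the class II chains *H2-Aa* and *H2-Ab1* were listed at 0.

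**Figure D4:**
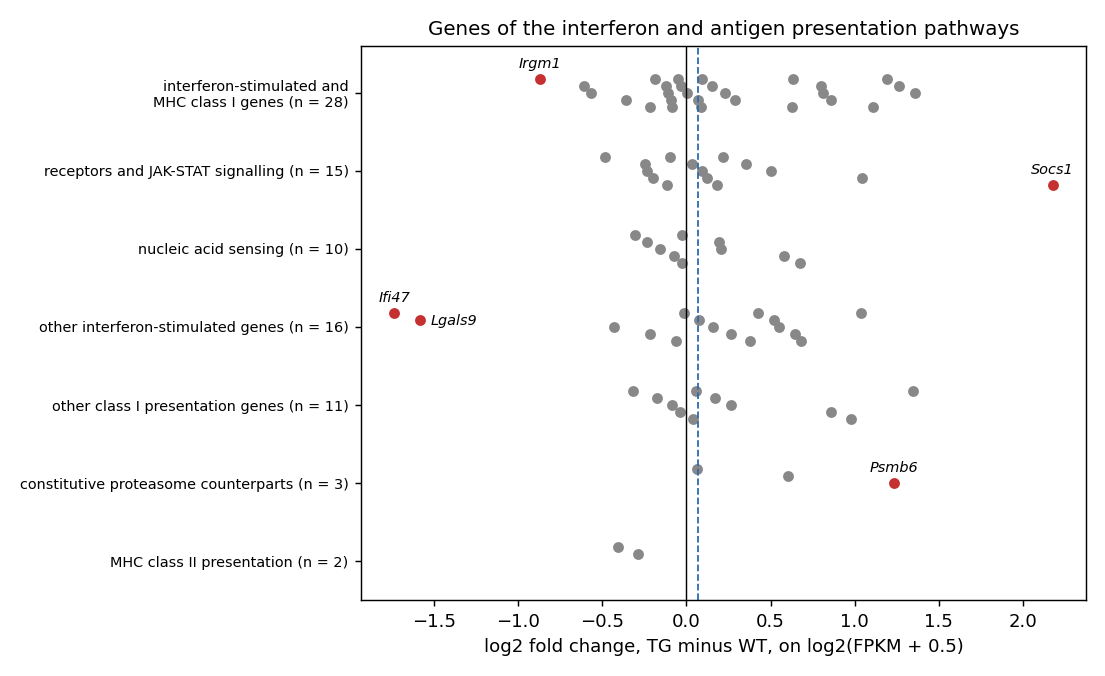
Log2 fold change between TG and WT of each gene tested, by list, with the 28 genes of the set in the top row. Red points have an adjusted p under 0.05 and are named (*Irgm1*, *Socs1*, *Ifi47*, *Lgals9* and *Psmb6*), and the dashed line is the median of all genes tested (0.071).

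Markers of leukocytes, which express many of these genes at high levels, were near 0 in these cells. Of 10 leukocyte markers, 6 were listed at 0 in all libraries, among them *Ptprc*, *Adgre1*, *Itgam*, *Tyrobp* and *Cd3e*. Their sum was 8.95 to 12.6 FPKM in WT and 5.21 to 11.4 in TG, nearly all from *Cd68*, without which it was 0 to 0.472 in WT and 0.0243 to 0.0924 in TG. Of 7 keratinocyte markers, *Krt5*, *Krt14* and *Krt1* were listed at 0, and the sum was 2.24 to 3.17 FPKM in WT and 1.92 to 2.34 in TG. The sums of 5 endothelial and 5 melanocyte markers stayed at or under 0.567 FPKM in every library. Of the 10 fibroblast markers, 8 were tested. *Col1a1* was lower in TG, at 867 and 789 FPKM in WT and 407 and 539 in TG (limma adjusted p = 0.0491, voom adjusted p = 0.0004). *Pdgfrb* was also lower, at 56.8 and 57.3 in WT and 31.7 and 26.8 in TG (limma adjusted p = 0.0165, voom adjusted p = 0.00023). *Col1a2*, at 439 and 311 FPKM in WT and 207 and 273 in TG, passed 0.05 only with voom (limma adjusted p = 0.143, voom adjusted p = 0.0139). Of the 9 above 0, 5 lay below WT in both TG libraries (55.6%, against 18.1% of all genes above 0). *Pdgfra*, *Vim* and the untested *Dcn* lay above (33.3%, against 25.5%). *Pdgfra* was at 0.0999 and 0.307 FPKM in WT and 0.823 and 1.13 in TG (limma adjusted p = 0.218, voom adjusted p = 0.0314). The part of these differences in the results was not tested.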

How the data were processed

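RNA was sequenced from 2 WT and 2 TG libraries. The authors used Rsubread for alignment to mm10 (paired-end reads) and featureCounts for counts per gene, and deposited these as FPKM. The labels list DESeq, which the authors used on counts, and no count table was used here. Strand and multi-read settings of the counting and the read length are not given in the sources used here. No columns of per-sample values were left unused (0).

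Whole reads behind the FPKM values were recovered from their ratios between libraries, within a tolerance of 3e-10 of the value for values of full length, for all 15530 genes above 0. In 1946 genes a common factor was set from the exonic length. Recovered reads made up 96.58% to 97.27% of the library totals. Limits from counts of 0 (3 reads) cover counting error only. TG was compared with WT by limma 3.58.1 in R 4.3.3 (lmFit and trended eBayes) on log2(FPKM + 0.5). Genes had to average 0.5 FPKM, and adjustment (Benjamini-Hochberg) was over all 11524 of these. The test was tried on simulated data, with changes put only into genes above a set number of reads. The spread between simulated libraries was fixed and not taken from these data. That trial therefore does not show how the test treats genes with few reads. The replicate numbers pair nothing in the labels, and across genes the differences between replicates 2 and 1 of WT and TG had a correlation of -0.0276.

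The 43 genes and all lists were chosen with earlier results of these data known. Values in every library are given for genes with an adjusted p under 0.05, the 2 highest and 2 lowest genes above 0 of each role group, and *Xist*. Other genes were named after their values were seen. Gene positions and promoters are those of RefSeq on GRCm38, the assembly of mm10. No promoter entry was found for *Parp14*, *Rtp4*, *Tap2*, *Dhx58*, *Mx1*, *Mx2*, *Oas2*, *Usp18* and *Parp9*, whose positions were used. Shared stretches were counted over annotated GENCODE vM21 transcripts. Values of some genes of the lists are not reported here.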

Additional observations from a re-analysis of the deposited data

How the results depend on the processing

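In no setting tried did limma or voom call a gene of the set at the thresholds of the study. Over all genes tested, 54 were called down and 70 up. The counts were 1 and 0 with all genes above 0, 6 and 3 without a variance trend, 8 and 12 with the replicate number as a block, 149 and 119 with voom, and 121 and 229 at an adjusted p under 0.05. With 1 library left out they were 1 to 47 and 0 to 66, lowest without WT 1. *Irgm1*, the 1 gene of the set lower at an adjusted p under 0.05, did not pass (0 genes) with all genes above 0 (adjusted p = 0.105), without a variance trend (0.108), with the replicate block (0.0766), or with any 1 library left out (0 to 0). It passed with the other pseudocounts, filters, scalings and voom. Without a variance trend 1 gene, *Dhx58*, was higher. The count with both TG libraries above WT was 14 of the 40 genes of the set above 0 (35%, against 25.5% of all genes above 0). With a mean FPKM of at least 1 it was 3 of 20. The share of all genes at that level was not worked out, so this last count is not compared with it. The block gave no further call in the set. The median log2 fold change of the set was 0.191 over all genes above 0 (all genes 0.044). Outside the set, *Socs1*, *Ifi47* and *Psmb6* had adjusted p-values of 0.0972, 0.0887 and 0.152 with all genes above 0, *Ifi47* and *Psmb6* had 0.0619 and 0.0541 with the block, and *Psmb6* had 0.0976 without a variance trend. No cause of these differences was tested.

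Direction turned in genes near 0. *Igtp* was at -0.0036 with a pseudocount of 1, -0.032 with upper-quartile scaling and -0.086 with quantile normalization, and *B2m* at -0.10 with the last. With 1 library left out, log2 fold changes that turned ranged from -0.096 to 0.28 (*Irf9*), -0.10 to 0.039 (*Ifit2*), -0.81 to 0.092 (*Bst2*), -1.43 to 0.99 (*Rtp4*), -0.081 to 0.55 (*Eif2ak2*), -0.35 to 0.53 (*Isg15*), -0.58 to 0.40 (*Ifi35*), -0.25 to 0.26 (*Igtp*), -0.40 to 0.16 (*Tap2*), -0.18 to 0.32 (*B2m*) and -0.11 to 0.010 (*H2-D1*). Ratios of *Psmb8* and *Psmb9* to their counterparts could not be put on a log scale, because of values of 0. In the set, 19 genes had 1 to 99 reads and 3 had 0, and what depth did to their values was not tested.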
